A study of Homo sapiens with 12 samples.

Results

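The genes described here are long noncoding and antisense RNA genes that were expressed in melanoma cells. A gene belonged to the set if its symbol started with LINC, ended in -AS1, -AS2 or -AS3, or was MALAT1, NEAT1 or MIR155HG, and if its raw read counts summed to at least 300 over 12 libraries. Of 44700 genes in the count tables, 1664 had such a symbol, 1282 of those had a count, and 289 reached the total. They were 102 LINC genes, 185 antisense genes, MALAT1 and NEAT1. MIR155HG, the host transcript of the microRNA miR-155, had a total of 284 and was not among them. The totals just inside were 302 for LINC00526, 302 for TMC3-AS1 and 300 for ZNF295-AS1, and just outside 294 for LINC01117, 294 for LINC01125 and 289 for LINC01547. The genes were thus chosen by their total read count, so being expressed is not a finding about them.

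SK-MEL-5 and MALME-3M are established human melanoma cell lines, both labelled wild type. The groups were SK-MEL-5 cells given 150 ng/mL IFN-γ for 24 h, untreated SK-MEL-5 cells, MALME-3M cells given 200 ng/mL IFN-γ for 24 h, and untreated MALME-3M cells. Each group had 3 libraries of total RNA from triplicate wells, with IFN-γ added at seeding, so p-values measure the spread between wells of 1 line. The dose and the culture medium (MEM with less serum for SK-MEL-5, IMDM with more for MALME-3M) differed with the line and cannot be told apart from it.

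A long noncoding RNA gene is transcribed into an RNA of messenger length with no known protein product. An antisense gene lies on the strand opposite a protein-coding gene, and some start beside the start of that gene. MALAT1 and NEAT1 stay in the nucleus, MALAT1 in nuclear speckles and NEAT1 as the scaffold of paraspeckles. IFN-γ acts through the kinases JAK1 and JAK2, and GAS and ISRE elements are short DNA motifs found in promoters of interferon-responsive genes.

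MMP25-AS1, LINC00152, LINC-PINT and LINC01138, all called higher with IFN-γ in both lines, had such letters in a RefSeq promoter window (GRCh38.p14, 250 bases before to 50 after an annotated start), and their windows are shown 5′ to 3′ on the gene's strand with the match in capitals. The GAS core searched was TTC and GAA parted by 3 free bases, and the ISRE core was a pair of TTTC parted by 2 free bases, or GAAA in the same arrangement on the other strand. MMP25-AS1 (chr16:3059321-3059620, minus strand) and LINC00152 (now CYTOR, chr2:87455177-87455476, plus strand) held a GAS core, starting 169 and 106 bases before the start. LINC-PINT (chr7:131106981-131107280, minus strand, an internal start) held an ISRE core 189 bases before the start, and LINC01138 (chr1:148459871-148460170, minus strand) one beginning 19 bases after it.
MMP25-AS1: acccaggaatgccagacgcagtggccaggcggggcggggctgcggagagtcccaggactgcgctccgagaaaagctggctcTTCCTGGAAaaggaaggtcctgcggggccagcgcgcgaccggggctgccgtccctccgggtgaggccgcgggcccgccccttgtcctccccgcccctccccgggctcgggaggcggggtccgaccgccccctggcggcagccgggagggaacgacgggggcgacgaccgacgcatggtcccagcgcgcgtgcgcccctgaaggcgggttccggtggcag
LINC00152: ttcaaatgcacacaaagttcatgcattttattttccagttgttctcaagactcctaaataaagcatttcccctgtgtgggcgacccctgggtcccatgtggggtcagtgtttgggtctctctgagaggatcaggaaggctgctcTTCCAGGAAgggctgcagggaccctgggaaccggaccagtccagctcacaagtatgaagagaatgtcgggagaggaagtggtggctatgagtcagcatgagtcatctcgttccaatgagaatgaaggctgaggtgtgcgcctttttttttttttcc
LINC-PINT: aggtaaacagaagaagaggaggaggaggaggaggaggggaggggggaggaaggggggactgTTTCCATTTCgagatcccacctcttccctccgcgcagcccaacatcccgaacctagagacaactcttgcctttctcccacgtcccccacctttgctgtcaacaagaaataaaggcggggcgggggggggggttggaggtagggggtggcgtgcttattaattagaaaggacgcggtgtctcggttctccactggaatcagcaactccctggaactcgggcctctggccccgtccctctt
LINC01138: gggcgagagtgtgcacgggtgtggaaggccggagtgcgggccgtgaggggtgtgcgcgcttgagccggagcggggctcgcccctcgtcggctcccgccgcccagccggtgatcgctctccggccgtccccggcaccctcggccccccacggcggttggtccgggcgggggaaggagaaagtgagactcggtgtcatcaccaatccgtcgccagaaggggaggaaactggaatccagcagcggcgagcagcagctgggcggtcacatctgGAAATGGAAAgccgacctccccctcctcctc
A match is a description of letters, not of a bound site. Among all 35116 promoter windows in the table, 3.57% held an ISRE core and 7.66% a GAS core, and among the 281 windows of 230 genes of the set the shares were 3.20% and 6.41%. Windows of genes called higher in either line held an ISRE core in 4 of 30 and a GAS core in 3 of 30, and those of genes called lower in 0 and 1 of 26. That 1 window belonged to LINC00998, which was called lower in both lines. The windows of genes called higher came from 22 genes and those of genes called lower from 20, so some called genes had none. USP30-AS1 had no promoter window to search. No match was found for PSMG3-AS1, RFX3-AS1, PAXIP1-AS2 or NEAT1, which were also called higher in both lines.

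Positions were found for 285 of the 289 genes in GENCODE 29 on GRCh38. Of these, 168 overlapped a protein-coding gene on the other strand, 5 overlapped one on their own strand only, and 112 overlapped none. Exon bases were shared with a coding gene in 150, and 117 started within 1000 bases of a coding start on the other strand. The strand setting of the counting is not given in the sources used here, so the reads of an antisense gene and its overlapping partner cannot be told apart. RefSeq now lists 9 of the 289 as protein-coding, among them LINC00998 (SMIM30) and LINC00116 (MTLN, mitoregulin), both of which encode small membrane proteins. In 74 of 282 genes with annotated transcripts, the transcript estimates held under 10% of the reads counted for the gene, and the median share was 26.4%, against 41.3% for other genes with a total of at least 300.

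Gene counts totalled 15514412 to 22921184 per library, and the 289 genes took 1.68% to 2.73% of them. All 289 passed the filter on low counts. Levels are CPM, read counts scaled to TMM-adjusted library sizes, and changes are log2 fold changes ± SE from edgeR's quasi-likelihood test on all genes, called at a Benjamini-Hochberg adjusted p below 0.05. Melanocytic markers (7 of 7 detected) summed to 5264 to 5413 CPM in IFN-γ-treated and 5572 to 5908 CPM in untreated SK-MEL-5 cells, and to 5833 to 6206 CPM in IFN-γ-treated and 6269 to 6300 CPM in untreated MALME-3M cells, without overlap in either line. Summed markers reached at most 0.969 CPM for T or NK cells, 1.48 CPM for myeloid cells, 1.80 CPM for endothelial cells and 0.3 CPM for keratinocytes, with CD2 at 0 in every library. Fibroblast markers (6 genes) summed to 130 to 135 CPM in IFN-γ-treated and 162 to 189 CPM in untreated SK-MEL-5 cells, and to 15.3 to 17.7 CPM in IFN-γ-treated and 18.2 to 19.5 CPM in untreated MALME-3M cells, with COL1A2 at 0 in untreated SK-MEL-5 cells. The part of these markers in the results was not tested. In bulk samples, fewer cells that express a gene and less RNA per cell cannot be told apart.

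MALAT1 made up 73.1% to 82.3% of all CPM of the set in the 4 groups, and the median gene was at 3.55 to 3.96 CPM. MALAT1 had 14164, 13863 and 13754 CPM in IFN-γ-treated SK-MEL-5 cells and 12468, 12956 and 12786 CPM in untreated ones. In MALME-3M it had 22620, 22634 and 18077 CPM with IFN-γ and 17333, 18228 and 17232 CPM without. Every treated library of SK-MEL-5 was above every untreated one, while in MALME-3M treated library 3 fell within the untreated range. MALAT1 rose in MALME-3M by 0.26 ± 0.06 (adjusted p = 0.00493). The change in SK-MEL-5 was 0.13 ± 0.06 and was not called (adjusted p = 0.198). It was called there when MALME-3M IFN-γ library 3 was left out of the shared fit (0.16, adjusted p = 0.000462), when only the SK-MEL-5 libraries were fitted (0.16, adjusted p = 0.00378), and with no filter on low counts (0.13, adjusted p = 1.76e-05). MALME-3M IFN-γ library 3 also stood farthest from its replicates over all genes, with a chi-square per gene of 13.2 and 17.4, against 5.93 to 10.9 for all other pairs.

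NEAT1 had 806, 666 and 777 CPM in IFN-γ-treated SK-MEL-5 cells and 574, 567 and 707 CPM in untreated ones, so the groups overlapped. In MALME-3M it had 476, 500 and 502 CPM with IFN-γ and 346, 380 and 400 CPM without, with no overlap. It rose by 0.39 ± 0.08 in MALME-3M (adjusted p = 0.00155) and by 0.28 ± 0.08 in SK-MEL-5 (adjusted p = 0.0214). The SK-MEL-5 call was lost without untreated library 1 or 2 or IFN-γ library 1 or 3 (adjusted p = 0.101, 0.126, 0.110 and 0.0973) and in DESeq2 (adjusted p = 0.0615). The long NEAT1-202 transcript (22743 nt), which builds paraspeckles, was estimated at 7.55 ± 1.58 TPM in IFN-γ-treated and 5.24 ± 0.232 TPM in untreated MALME-3M cells, and at 9.83 ± 1.65 TPM in IFN-γ-treated and 8.17 ± 1.53 TPM in untreated SK-MEL-5 cells (SD, n = 3). Of a list of 21 nuclear body and paraspeckle genes, 20 were tested. Among the genes of the list reported here, NEAT1 was called higher in both lines and MALAT1 in MALME-3M. HNRNPK, HNRNPH3 and TAF15, genes of RNA-binding proteins, were called lower in MALME-3M. The calls of HNRNPK, HNRNPH3 and TAF15 were lost without MALME-3M untreated library 1 (adjusted p = 0.173, 0.264 and 0.0611), that of HNRNPK also without IFN-γ library 2 (adjusted p = 0.0866), and that of HNRNPH3 in 8 of 12 omissions in all. The median change of the list was 0.03 in SK-MEL-5 and -0.05 in MALME-3M. Calls were made for 13.0% of all genes tested in SK-MEL-5 and 18.3% in MALME-3M.

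**Figure D1:**
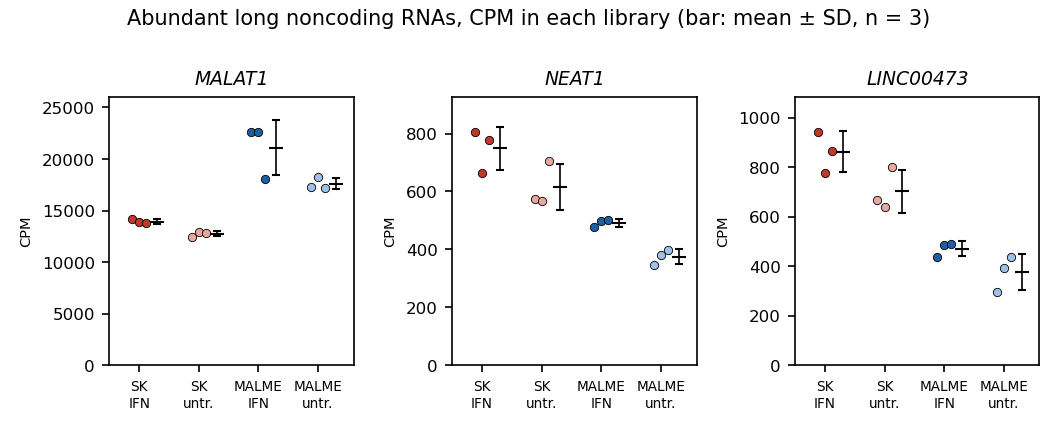
CPM of MALAT1, NEAT1 and LINC00473 in each library (points) by line and treatment, with the mean ± SD (n = 3) to the right of each group. MALAT1 in MALME-3M with IFN-γ had 22620 and 22634 CPM in libraries 1 and 2 and 18077 CPM in library 3.

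LINC00473, a cAMP-responsive noncoding gene picked for its level after its values were seen, had a mean of 862 and 702 CPM in treated and untreated SK-MEL-5 cells and 471 and 375 CPM in treated and untreated MALME-3M cells. Its change was 0.33 ± 0.11 in MALME-3M (adjusted p = 0.0407). That call was lost without MALME-3M untreated library 1 or 2, IFN-γ library 2 or 3 or SK-MEL-5 IFN-γ library 3, with adjusted p of 0.0554 to 0.205. Its change in SK-MEL-5 was 0.29 ± 0.11 and was not called (adjusted p = 0.0836). Per kb of annotated exon the next genes after MALAT1 were LINC01419, LINC01021 (now PURPL, a p53-regulated gene), LINC00698, LINC00998, LINC-PINT, PHKA2-AS1 and NEAT1. Their mean levels over the 4 groups ran from 39.2 CPM per kb for LINC01419 to 24.5 CPM per kb for NEAT1, against 1851 CPM per kb for MALAT1. These values divide all counted reads of a gene by its annotated exon length. Annotated transcripts held under 10% of the counted reads of LINC-PINT, PHKA2-AS1, LINC01021 and LINC00698. They held over 10% for LINC01419, LINC00998 and NEAT1. The place of LINC-PINT, PHKA2-AS1, LINC01021 and LINC00698 above NEAT1 per kb of exon is thus uncertain. Only genes with an annotated exon length could be ranked per kb, which leaves out LINC00473, LINC01317, LINC00969 and MAFG-AS1. LINC01317 had 51079 counts in treated and 42549 in untreated libraries of both lines.

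With IFN-γ, 19 genes of the set were called higher and 12 lower in SK-MEL-5 cells, 10.7% of the 289, against 13.0% of all 15810 genes tested (5.98% higher and 7.05% lower). In MALME-3M cells 22 were called higher and 22 lower, 15.2%, against 18.3% of all genes tested (9.51% higher and 8.77% lower). Among other genes with a total of at least 300, the shares called were 15.3% in SK-MEL-5 and 21.4% in MALME-3M. The treated and untreated libraries did not overlap for 72 genes of the set in SK-MEL-5 (24.9%, against 29.1% of all genes) and for 80 in MALME-3M (27.7%, against 33.1%). The median change was 0.02 in both lines, beside -0.03 in SK-MEL-5 and 0.00 in MALME-3M over all genes tested. A gene could reach the total through treated libraries alone, so the counts were also taken over the 268 genes with at least 150 counts in both the treated and the untreated libraries. There 15 were called higher and 12 lower in SK-MEL-5, and 18 higher and 21 lower in MALME-3M. That condition was not applied to all genes, so no share stands beside these counts. Leaving out each of the 12 libraries in turn, 14 of the 31 calls in SK-MEL-5 (11 higher, 3 lower) and 20 of the 44 in MALME-3M (10 higher, 10 lower) were kept each time, and all 31 and 44 kept their sign. The share of calls kept over all genes was not taken. In sums of annotated transcript estimates, 23 of the 31 and 36 of the 44 could be tested, 20 and 34 had the same sign, and 4 and 7 were also called that way. Fewer of all genes were called in these sums too. Of 12753 tested, 388 were called higher and 183 lower in SK-MEL-5, and 519 and 411 in MALME-3M.

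USP30-AS1 (chr12:109052350-109053952, minus strand) lies within USP30, the gene of a mitochondrial deubiquitinase, and shares 233 exon bases with it. It had 3.13, 1.78 and 1.89 CPM in IFN-γ-treated SK-MEL-5 cells and 0.127, 0.0445 and 0.152 CPM in untreated ones, a rise of 4.37 ± 0.49 (adjusted p = 3.07e-06). MALME-3M cells had 3.73, 3.23 and 3.36 CPM with IFN-γ and 0, 0 and 0.104 CPM without. The 206 counts in treated MALME-3M libraries, against 2 in untreated ones, gave a ratio of 89.6 (95% Clopper-Pearson interval 24.5 to 745, adjusted p = 1.41e-07). All treated libraries were above all untreated ones in both lines. Of its 340 counts 332 came from treated libraries, so it entered the set through them. USP30 itself did not pass the test, with changes of -0.12 ± 0.13 in SK-MEL-5 and -0.15 ± 0.12 in MALME-3M (adjusted p = 0.646 and 0.459). The annotated USP30-AS1 transcript was estimated at 0.824 ± 0.499 TPM in treated SK-MEL-5 and 1.47 ± 0.495 TPM in treated MALME-3M cells (SD, n = 3) and was listed at 0 in all 6 untreated libraries.

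MMP25-AS1 (chr16:3037403-3059370, minus strand) overlaps MMP25, a membrane-anchored matrix metalloproteinase gene. It had 11.7, 13.3 and 12 CPM in IFN-γ-treated SK-MEL-5 cells and 1.34, 0.980 and 1.27 CPM in untreated ones. MALME-3M cells had 28.7, 31.5 and 37.5 CPM with IFN-γ and 3.13, 2.77 and 2.86 CPM without. It rose by 3.38 ± 0.16 in SK-MEL-5 and 3.48 ± 0.14 in MALME-3M (adjusted p = 7.58e-12 and 4.02e-13), a difference between the lines of 0.10 ± 0.24 (adjusted p = 0.906). Every treated library was far above every untreated one in both lines. Its promoter window is the first one printed above, and the part of the GAS core there in the rise was not tested. MMP25 was at 0.108 CPM or less in treated SK-MEL-5 libraries. In MALME-3M it had 0.541, 0.937 and 0.763 CPM with IFN-γ and 0.180, 0.181 and 0.0521 CPM without, a change of 2.43 ± 0.63 (adjusted p = 0.0104), whose call was lost without untreated library 3 or IFN-γ library 2 (adjusted p = 0.0677 and 0.0503).

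C1RL-AS1 (chr12:7108052-7122501, plus strand) lies opposite C1RL, which encodes a protease related to complement C1r. In MALME-3M it had 7.69, 9.08 and 9.06 CPM with IFN-γ and 3.55, 3.38 and 2.34 CPM without, a rise of 1.49 ± 0.26 (adjusted p = 0.000412). In SK-MEL-5 it had 0.342, 0.0538 and 0.391 CPM with IFN-γ and 0, 0.134 and 0.203 CPM without, and was not called (1.06 ± 0.71, adjusted p = 0.399). C1RL was called higher in both lines, by 1.86 ± 0.43 in SK-MEL-5 and 0.89 ± 0.30 in MALME-3M (adjusted p = 0.00590 and 0.0474), though in MALME-3M the call was lost without SK-MEL-5 IFN-γ library 3 (adjusted p = 0.0660) and without any 1 of the MALME-3M libraries (adjusted p from 0.0610 to 0.163).

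RFX3-AS1 (now RFX3-DT, chr9:3526723-3691814, plus strand) starts 719 bases from the start of RFX3, a transcription factor gene of ciliated cells, on the other strand, and overlaps no coding gene. It had 14.7, 13.4 and 15.1 CPM in IFN-γ-treated SK-MEL-5 cells and 7.38, 6.63 and 7.15 CPM in untreated ones, and in MALME-3M 2.70, 2.86 and 3.10 CPM with IFN-γ and 1.56, 1.99 and 2.13 CPM without. The rise was 1.03 ± 0.13 in SK-MEL-5 (adjusted p = 1.53e-05) and 0.60 ± 0.17 in MALME-3M (adjusted p = 0.0194), where it was lost without untreated library 1 or IFN-γ library 3 (adjusted p = 0.0944 and 0.0827). RFX3 rose beside it by 1.20 ± 0.10 in SK-MEL-5 and 1.01 ± 0.10 in MALME-3M (adjusted p = 3.93e-08 and 6.06e-07). Annotated RFX3-AS1 transcripts held 0.342% of its counted reads, and RFX3 changed by -0.22 in SK-MEL-5 and 0.09 in MALME-3M in the summed transcript estimates, with neither called, so both rises rest on gene counts alone.

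LINC-PINT, a p53-induced noncoding gene (chr7:130938963-131110176, minus strand), had 321, 259 and 297 CPM in IFN-γ-treated SK-MEL-5 cells and 185, 170 and 238 CPM in untreated ones. It had 293, 354 and 373 CPM in IFN-γ-treated MALME-3M cells and 199, 244 and 252 CPM in untreated ones. It rose by 0.57 ± 0.11 and 0.55 ± 0.11 in SK-MEL-5 and MALME-3M (adjusted p = 0.00208 and 0.00179), with no overlap of treated and untreated libraries in either line. Its annotated transcripts held 1.33% of its counted reads, and in the transcript sums the changes were 0.88 and 0.78, not called in either line (adjusted p = 0.216 and 0.223). LINC00152 (CYTOR), a cytoplasmic RNA studied for its part in proliferation, had 16.3, 16.4 and 17.1 CPM with IFN-γ and 10.6, 10.7 and 12 CPM without in SK-MEL-5, and 16.2, 12.8 and 16.1 CPM with IFN-γ and 9.86, 10.5 and 9.21 CPM without in MALME-3M. It rose by 0.58 ± 0.11 and 0.61 ± 0.11 in these lines (adjusted p = 0.00138 and 0.000769). Its annotated transcripts held 92.2% of its counted reads, and in the transcript sums the change was 0.68 in SK-MEL-5 (adjusted p = 0.0148) and 0.29 in MALME-3M, where it was not called (adjusted p = 0.271). Its near-identical copy MIR4435-2HG can share its reads, which makes the gene of origin uncertain.

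PSMG3-AS1 lies opposite PSMG3, a proteasome assembly chaperone gene, and rose by 0.67 ± 0.12 in SK-MEL-5 and 0.61 ± 0.12 in MALME-3M (adjusted p = 0.000948 and 0.00165). PSMG3 changed by -0.03 ± 0.08 and 0.10 ± 0.09 in these lines and was not called. PAXIP1-AS2, opposite the DNA damage response gene PAXIP1, rose by 0.76 ± 0.14 in SK-MEL-5 (adjusted p = 0.000963) and by 0.48 ± 0.12 in MALME-3M (adjusted p = 0.00967). Its MALME-3M call was lost without untreated library 1 or IFN-γ library 3 (adjusted p = 0.0574 and 0.0513), and PAXIP1 was called in neither line. LINC01138, in a duplicated stretch of chromosome 1 whose copies can share reads, rose by 0.79 ± 0.11 in MALME-3M (adjusted p = 2.35e-05) and by 0.38 ± 0.09 in SK-MEL-5 (adjusted p = 0.00895), where the call was lost without IFN-γ library 1 (adjusted p = 0.0557).

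**Figure D2:**
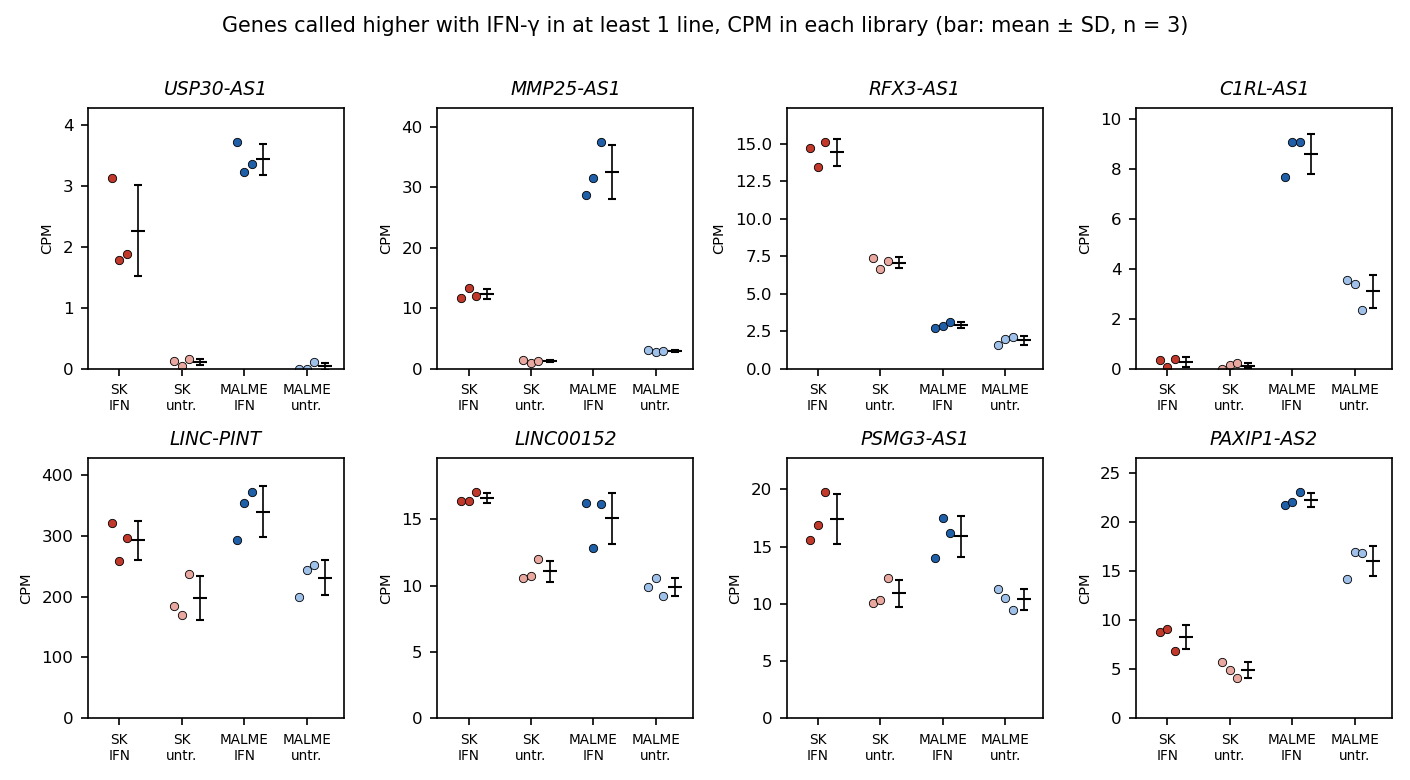
CPM in each library (points) of 8 genes called higher with IFN-γ in at least 1 line, by line and treatment, with the mean ± SD (n = 3) beside each group. USP30-AS1 and MMP25-AS1 were near 0 or low in untreated cells of both lines, and C1RL-AS1 was below 0.4 CPM in every SK-MEL-5 library.

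Other genes were called higher in SK-MEL-5 and not called in MALME-3M. LINC00426 had 0.978, 1.62 and 2.08 CPM with IFN-γ and 0.382, 0.445 and 0.558 CPM without (1.71 ± 0.35, adjusted p = 0.00258). LINC00944 had 2.10, 2.05 and 2.34 CPM with IFN-γ and 0.763, 0.802 and 0.507 CPM without (1.64 ± 0.35, adjusted p = 0.00308). LINC00607 had 2.98, 1.94 and 3.97 CPM with IFN-γ and 1.08, 1.11 and 0.862 CPM without (1.53 ± 0.33, adjusted p = 0.00339). These genes had 106 to 129 counts in untreated libraries of both lines, and the treated libraries of SK-MEL-5 were above the untreated ones for each. They are thus outside the 268 genes with at least 150 counts in both conditions. TFAP2A-AS1 rose by 0.99 ± 0.21 (adjusted p = 0.00383) beside TFAP2A, a transcription factor gene of the neural crest and melanocyte lineage, which rose by 0.49 ± 0.05 (adjusted p = 2.36e-07). In MALME-3M TFAP2A rose by 0.48 ± 0.05 (adjusted p = 3.56e-07), while TFAP2A-AS1 changed by 0.02 ± 0.24 and was not called. For none of these was the difference between the lines called, with adjusted p of 0.103 for TFAP2A-AS1, 0.197 for LINC00426, 0.182 for LINC00944 and 0.277 for LINC00607.

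Less stable calls in SK-MEL-5 were those of LINC00987 (0.99 ± 0.26), lost without untreated library 3 or IFN-γ library 1 (adjusted p = 0.0677 and 0.0515), and LIPE-AS1 (0.98 ± 0.29), lost without untreated library 1 or 2 or IFN-γ library 1 or 3 (adjusted p = 0.104, 0.0844, 0.0532 and 0.130). ZBED3-AS1 (0.74 ± 0.24) lost its call in 8 of 12 omissions, with adjusted p of up to 0.232 without SK-MEL-5 untreated library 2. LINC00116 (MTLN) fell by 0.76 on the log2 scale (adjusted p = 0.0152), which was lost without untreated library 2 or IFN-γ library 1 (adjusted p = 0.0841 and 0.0944). LINC00862 fell by 0.64 on the log2 scale (adjusted p = 0.0166), lost without untreated library 2 or 3 or IFN-γ library 2 or 3 (adjusted p = 0.0534, 0.0654, 0.0995 and 0.0573).

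Among the genes called lower in both lines, LINC00630, on the X chromosome, had 26.3, 22.8 and 21 CPM in IFN-γ-treated SK-MEL-5 cells and 32.0, 32.6 and 33.7 CPM in untreated ones. MALME-3M cells had 17.7, 17.5 and 18.2 CPM with IFN-γ and 21.7, 25.7 and 24.8 CPM without. It fell by 0.48 and 0.44 on the log2 scale in SK-MEL-5 and MALME-3M (SE 0.09 each, adjusted p = 0.00102 and 0.00230), with no overlap in either line. In the transcript sums its changes were -0.37 and -0.094, called in neither (adjusted p = 0.644 and 0.926). LINC00998, which encodes the small protein SMIM30, fell by 0.27 in SK-MEL-5 and 0.25 in MALME-3M on the log2 scale (SE 0.05 each, adjusted p = 0.00202 and 0.00244). Both calls were kept without any 1 library, and in the transcript sums the change was -0.16 in SK-MEL-5, not called (adjusted p = 0.196), and -0.23 in MALME-3M (adjusted p = 0.0286). LINC00698 had 94.4, 109 and 91.0 CPM in IFN-γ-treated MALME-3M cells and 143, 179 and 202 CPM in untreated ones, and fell by 0.83 on the log2 scale (adjusted p = 1.22e-05). In SK-MEL-5 it fell by 0.36 on the log2 scale (adjusted p = 0.0412), a call lost in 7 of 12 omissions (adjusted p up to 0.166, without IFN-γ library 3). LINC01021 (PURPL) fell by 0.49 on the log2 scale in MALME-3M (adjusted p = 0.000121), and in SK-MEL-5 by 0.22 (adjusted p = 0.0488), a call lost in 9 of 12 omissions (adjusted p up to 0.181, without IFN-γ library 2).

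LINC01531 had 20.7, 18.7 and 21.2 CPM in IFN-γ-treated SK-MEL-5 cells and 29.6, 28.5 and 31.0 CPM in untreated ones, and fell by 0.56 on the log2 scale (adjusted p = 0.00141). In MALME-3M, where it was below 1 CPM in every library, it changed by -1.04 ± 0.29 (adjusted p = 0.0290), and the call was lost without untreated library 1 or 3 or IFN-γ library 2 or 3 (adjusted p = 0.0708, 0.144, 0.135 and 0.106). NNT-AS1 starts beside NNT, the gene of a mitochondrial proton-pumping transhydrogenase, and both were called lower in both lines. NNT-AS1 changed by -0.25 ± 0.08 and -0.34 ± 0.08 in SK-MEL-5 and MALME-3M (adjusted p = 0.0468 and 0.00663), and NNT by -0.28 ± 0.06 and -0.25 ± 0.06 (adjusted p = 0.00536 and 0.0112), the second lost without MALME-3M untreated library 3 (adjusted p = 0.0805). The NNT-AS1 call in SK-MEL-5 was lost in 7 of 12 omissions (adjusted p up to 0.186, without untreated library 3). ARHGAP5-AS1 changed by -0.56 ± 0.18 and -0.57 ± 0.17 (adjusted p = 0.0420 and 0.0228), and ARHGAP5, its sense partner, fell by 0.30 and 0.20 on the log2 scale (adjusted p = 6.51e-05 and 0.00260). The antisense call was lost in 10 of 12 omissions in SK-MEL-5 (adjusted p up to 0.196, without IFN-γ library 3) and in 4 in MALME-3M (adjusted p up to 0.0992, without untreated library 2). OTUD6B-AS1 changed by -0.21 ± 0.06 and -0.20 ± 0.06 (adjusted p = 0.0196 and 0.0303), with its calls lost in 5 omissions in SK-MEL-5 (adjusted p up to 0.0830, without IFN-γ library 2) and in 4 in MALME-3M (adjusted p up to 0.0771, without IFN-γ library 2). OTUD6B was called in neither line.

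**Figure D3:**
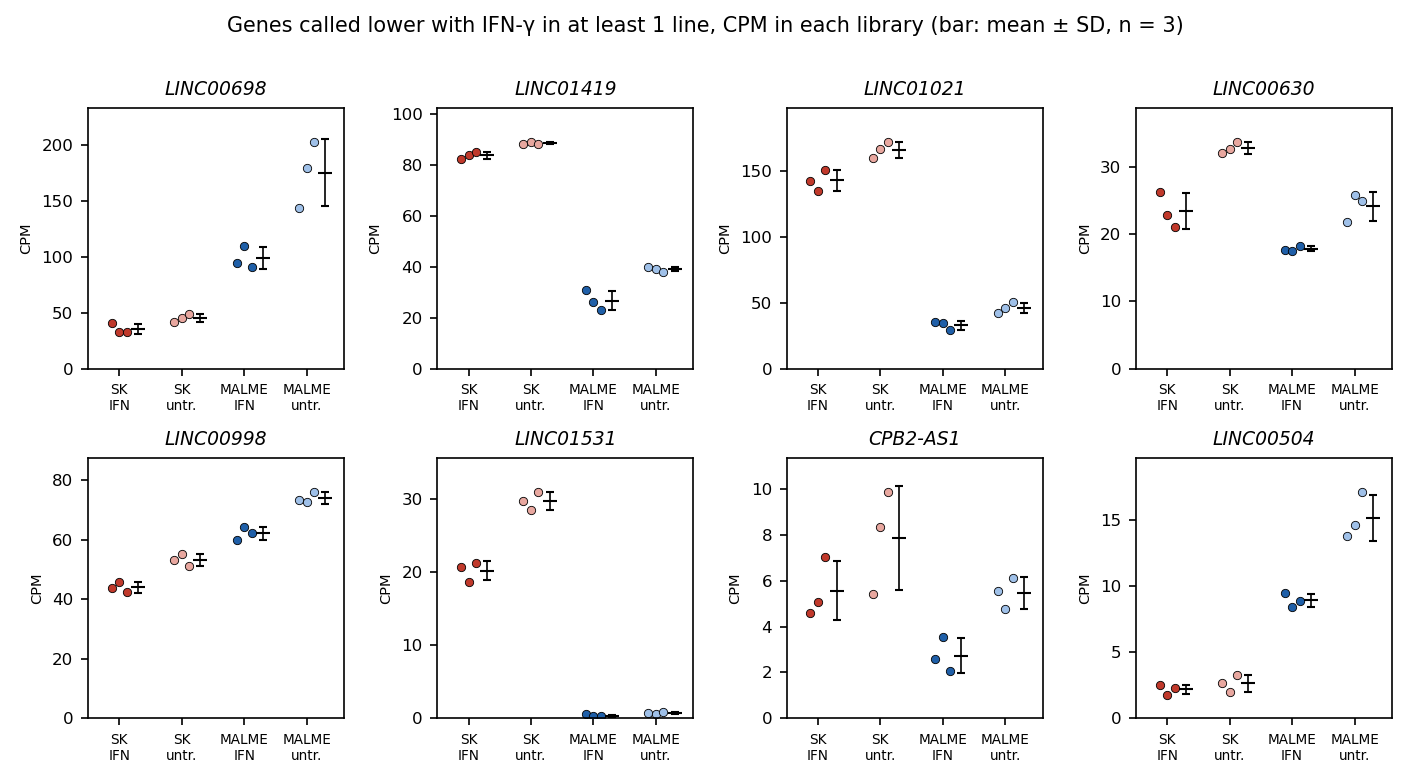
CPM in each library (points) of 8 genes called lower with IFN-γ in at least 1 line, by line and treatment, with the mean ± SD (n = 3) beside each group. LINC00630 and LINC00998 were lower in every treated library than in every untreated library of the same line.

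Of the genes called in MALME-3M and not in SK-MEL-5, CPB2-AS1 had 2.58, 3.56 and 2.06 CPM with IFN-γ and 5.53, 4.76 and 6.14 CPM without (-1.0 ± 0.25, adjusted p = 0.00707). It overlaps CPB2, a carboxypeptidase gene of clot stability, and starts 47 bases from the start of ZC3H13. LINC00920 had 7.93, 7.68 and 7.04 CPM with IFN-γ and 13.6, 11.8 and 14.7 CPM without (-0.83 ± 0.17, adjusted p = 0.00202). LINC00504 had 9.44, 8.43 and 8.88 CPM with IFN-γ and 13.8, 14.6 and 17.1 CPM without (-0.77 ± 0.15, adjusted p = 0.00120). All treated libraries of these 3 genes were below all untreated ones. HPN-AS1, opposite the serine protease gene HPN (hepsin), had 17.8, 20.6 and 23.1 CPM with IFN-γ and 11.9, 11.3 and 12.2 CPM without, a rise of 0.80 ± 0.16 (adjusted p = 0.00114). In SK-MEL-5 the changes were -0.52 ± 0.22 for CPB2-AS1, -0.12 ± 0.22 for LINC00920 and -0.26 ± 0.20 for LINC00504, none of them called, and HPN-AS1 had 5 counts in all there, too few to show a change. The difference between the lines was called for none of these genes (adjusted p = 0.518 for CPB2-AS1, 0.194 for LINC00920, 0.335 for LINC00504 and 0.674 for HPN-AS1).

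Other MALME-3M calls were lost in some omissions of 1 library. TMEM147-AS1 had 3.91, 3.14 and 13.3 CPM with IFN-γ and 2.95, 2.65 and 2.19 CPM without. Its change of 1.41 ± 0.42 (adjusted p = 0.0235) was 0.42 without IFN-γ library 3 (adjusted p = 0.402), and the call was also lost without untreated library 1, 2 or 3 (adjusted p = 0.0510, 0.0666 and 0.0923). OSER1-AS1 (-1.20 ± 0.32, adjusted p = 0.0136) was lost without untreated library 2 or IFN-γ library 3 (adjusted p = 0.0666 and 0.0623). CYP4A22-AS1 (1.20 ± 0.34, adjusted p = 0.0197) was lost without untreated library 1 or IFN-γ library 1 or 2 (adjusted p = 0.0977, 0.0607 and 0.0768). MID1IP1-AS1 (0.84 ± 0.24, adjusted p = 0.0211) was lost without untreated library 1 or 2 or IFN-γ library 2 (adjusted p = 0.0568, 0.0910 and 0.0528). RAB11B-AS1 (1.02 ± 0.34) and LINC00921 (0.93 ± 0.29) were lost in 8 and 6 of 12 omissions, with adjusted p of up to 0.178 without untreated library 2 and up to 0.0948 without untreated library 3. LINC01013 had 2 counts in treated and 17 in untreated MALME-3M libraries, a ratio of 9.77 in favour of untreated cells (95% Clopper-Pearson interval 2.32 to 87.2, adjusted p = 0.0208). That call was lost without untreated library 2 or IFN-γ library 2 or 3 (adjusted p = 0.130, 0.0503 and 0.0838). Over both lines, CYP4A22-AS1, RAB11B-AS1 and LINC00921 had 149, 116 and 139 counts in untreated libraries, and LINC01013 had 128 in treated ones. They are thus outside the 268 genes with at least 150 counts in both conditions.

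Of the 58 genes called in either line, 17 were called in both, 9 higher and 8 lower, and 0 in opposite directions. The 17 were 54.8% of the calls in SK-MEL-5 and 38.6% of those in MALME-3M. Over all genes tested, the 1112 called in both lines were 54% and 38.5% of the calls, and 56 of them were in opposite directions. Across the 289 genes the changes in the lines had a Pearson r of 0.57, and r was 0.32 without USP30-AS1 and MMP25-AS1. Genes share libraries and are not independent, so this is a description, beside an r of 0.44 over all 15810 genes tested.

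**Figure D4:**
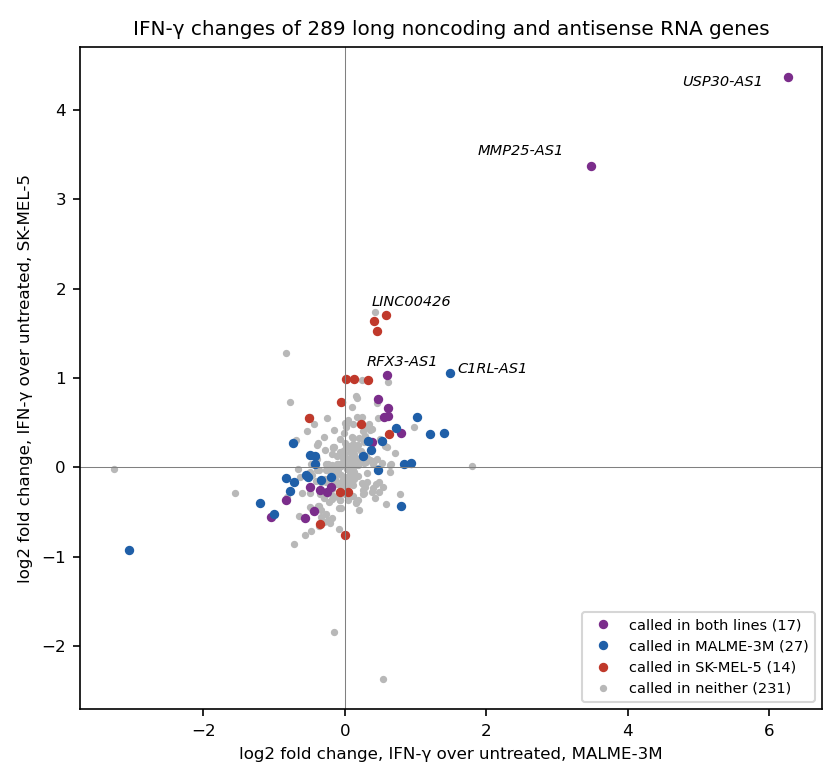
Log2 fold change with IFN-γ in MALME-3M (x axis) and in SK-MEL-5 (y axis), 1 point for each of the 289 genes, coloured by the lines in which it was called. USP30-AS1 and MMP25-AS1 lie far from the other genes in both lines, and the x value of USP30-AS1 rests on 2 counts in untreated cells.

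The change with IFN-γ differed between the lines, as MALME-3M minus SK-MEL-5, for 0 genes with a positive and 2 with a negative difference in edgeR, against 4.46% of all genes tested with either sign (2.67% positive and 1.79% negative). At an unadjusted p below 0.05 there were 42 of the 289 genes, against 16.5% of all genes tested. DESeq2 called 1 positive and 4 negative, beside 455 and 400 of all 34075 genes with a count. LINC01419, on chromosome 8 with no coding gene overlapping it, had 30.7, 26.2 and 23.2 CPM in IFN-γ-treated and 39.9, 39.2 and 38.2 CPM in untreated MALME-3M cells. In SK-MEL-5 it had 82.6, 83.9 and 85.1 CPM with IFN-γ and 88.4, 89.2 and 88.4 CPM without. It fell by 0.55 on the log2 scale in MALME-3M (adjusted p = 2.16e-05), changed by -0.08 ± 0.07 in SK-MEL-5 (adjusted p = 0.531), and the difference was -0.47 ± 0.10 (adjusted p = 0.00849). PITPNA-AS1, opposite the phosphatidylinositol transfer protein gene PITPNA, had 3.85, 4.68 and 2.92 CPM in IFN-γ-treated and 5.05, 6.15 and 5.41 CPM in untreated MALME-3M cells. In SK-MEL-5 it had 4.40, 5.55 and 5.15 CPM with IFN-γ and 3.63, 3.74 and 4.01 CPM without. The difference was -0.94 ± 0.26 (adjusted p = 0.0494) and was lost in 11 of 12 omissions (adjusted p up to 0.134, without SK-MEL-5 IFN-γ library 2).

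In 163 antisense genes the partner was also tested. With IFN-γ 13 of these antisense genes and 24 partners were called in SK-MEL-5, and 22 and 38 in MALME-3M. Over all 15810 genes tested, 13.0% were called in SK-MEL-5 and 18.3% in MALME-3M. Antisense gene and partner were both called in 5 pairs in SK-MEL-5, 4 in the same direction, and in 8 pairs in MALME-3M, 7 in the same direction. The antisense gene alone was called in 8 pairs in SK-MEL-5 and 14 in MALME-3M. In SK-MEL-5 the opposite pair was PSMA3-AS1 (-0.27) and PSMA3 (0.37 ± 0.05, adjusted p = 4.04e-05), a proteasome subunit gene. PSMA3-AS1 was itself at adjusted p = 0.0225, and its call was lost without SK-MEL-5 untreated library 3, IFN-γ library 1 or 2 or MALME-3M IFN-γ library 1 (adjusted p = 0.121, 0.0575, 0.0983 and 0.0598). In MALME-3M the opposite pair was SLC16A1-AS1 (0.38) and SLC16A1 (-0.27 ± 0.06, adjusted p = 0.00299), the lactate transporter gene. SLC16A1-AS1 had an adjusted p of 0.0181 and lost its call without untreated library 1 or 2 or IFN-γ library 2 or 3 (adjusted p = 0.0787, 0.0595, 0.0792 and 0.113). These 4 genes were singled out after their values were seen.

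Of 20 symbols of noncoding genes listed as neighbours of interferon-regulated loci, matched only as listed, 4 were rows of the tables and 1, MIR155HG, was tested. It had 2.94, 2.44 and 4.49 CPM in IFN-γ-treated and 1.32, 1.63 and 1.46 CPM in untreated MALME-3M cells, a change of 1.16 ± 0.38 (adjusted p = 0.0379). The call was lost without untreated library 1, 2 or 3 or IFN-γ library 1 or 3 (adjusted p = 0.121, 0.0818, 0.107, 0.0630 and 0.243). In SK-MEL-5 it had 0, 0 and 0.195 CPM with IFN-γ and 0.127, 0.0445 and 0 CPM without, which gives no direction. Of 18 symbols of noncoding genes linked to melanoma or the 9p21 locus, matched only as listed, 10 were tested. The 5 that belong to the set were LINC00518, LINC00520, FOXD3-AS1, TTN-AS1 and EPB41L4A-AS1. With IFN-γ 1 of the 10 was called lower in SK-MEL-5 (LINC01315), and in MALME-3M 1 was called higher (SAMMSON) and 2 lower (LINC00520 and LINC01315). For this list and the next, the share called over all genes tested was 13.0% in SK-MEL-5 and 18.3% in MALME-3M. The LINC01315 calls were lost in 11 of 12 omissions in SK-MEL-5 (adjusted p up to 0.190, without untreated library 1) and in 8 in MALME-3M (adjusted p up to 0.133, without IFN-γ library 1). LINC00520 had 12.6, 13.6 and 11.4 CPM in IFN-γ-treated and 15.4, 16.2 and 18.3 CPM in untreated MALME-3M cells (-0.42 ± 0.13, adjusted p = 0.0348), a call lost without untreated library 2 or 3 or IFN-γ library 1 or 3 (adjusted p = 0.0658, 0.145, 0.0595 and 0.123). SAMMSON, a melanoma survival RNA encoded near MITF, had 145, 157 and 129 CPM in treated and 97.2, 111 and 127 CPM in untreated MALME-3M cells, and its change there exceeded that in SK-MEL-5 by 0.52 ± 0.13 (adjusted p = 0.0299). That difference was lost in 8 of 12 omissions (adjusted p up to 0.0926, without SK-MEL-5 IFN-γ library 2), and the MALME-3M call without untreated library 1 or IFN-γ library 2 (adjusted p = 0.0693 and 0.0626). Of 20 symbols of widely expressed noncoding genes studied in growth control, matched only as listed, 15 were tested. A gene present under another symbol was not counted in these lists. LINC-PINT and LINC00152 were called higher in both lines, ZFAS1 higher and LINC00116 lower in SK-MEL-5, and TUG1 and FGD5-AS1 lower in MALME-3M. Calls were lost in 6 of 12 omissions for ZFAS1 (adjusted p up to 0.250, without SK-MEL-5 IFN-γ library 3), 5 for TUG1 (up to 0.129, without MALME-3M IFN-γ library 3) and 3 for FGD5-AS1 (up to 0.104, without MALME-3M IFN-γ library 2). Median changes of the lists lay between -0.06 and 0.07 for the lists with over 1 gene tested, beside -0.03 in SK-MEL-5 and 0.00 in MALME-3M over all genes.

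Untreated MALME-3M and SK-MEL-5 cells differed in 179 genes of the set, 96 higher and 83 lower in MALME-3M, which is 61.9%, against 71.7% of all genes tested (34.5% higher and 37.2% lower). The libraries of the lines did not overlap for 188 genes (65.1%, against 73.8%). A gene could reach the total through 1 line, and of the 210 genes with at least 150 counts in each line 62 were called higher and 52 lower. Dose and treatment did not enter this comparison, but line and medium cannot be told apart in it.

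NR2F2-AS1, beside the nuclear receptor gene NR2F2, had 45.4, 57.4 and 59.9 CPM in MALME-3M and 0.127, 0 and 0.0507 CPM in SK-MEL-5. Its 2857 counts in MALME-3M, against 3 in SK-MEL-5, gave a ratio of 1052 (95% Clopper-Pearson interval 360 to 5103, adjusted p = 2.79e-17), and NR2F2 was also higher in MALME-3M (2.07 ± 0.09, adjusted p = 6.46e-14). HOXB-AS1, in the homeobox HOXB cluster, had 211 counts in MALME-3M and 0 in SK-MEL-5 and was at least 77.7-fold higher in MALME-3M against a floor of 3 counts over the group. LINC00941 had 535 counts in MALME-3M and 1 in SK-MEL-5, a ratio of 591 (interval 106 to 23381), and HPN-AS1 620 counts in MALME-3M and 3 in SK-MEL-5, a ratio of 228 (interval 77.7 to 1110). LINC00886 had 156 counts in MALME-3M and 1 in SK-MEL-5, a ratio of 172 (interval 30.5 to 6848). LINC01314 (now CTXND1), LINC00589, LINC01443, C1RL-AS1 and LINC00346 were higher in MALME-3M by 5.01, 4.80, 4.74, 4.60 and 4.26 on the log2 scale, with adjusted p of at most 3.58e-08. LINC01314 had 7928 counts in MALME-3M and 244 in SK-MEL-5 over treated and untreated libraries. The other genes of the set named in this paragraph had fewer than 150 counts in SK-MEL-5. They entered the set through MALME-3M, the line in which they were high.

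In the other direction, LINC01194 had 1 count in untreated MALME-3M and 2569 in untreated SK-MEL-5 cells, a ratio of 2326 in favour of SK-MEL-5 (95% Clopper-Pearson interval 417 to 91910). ZNF790-AS1 had 0 counts in MALME-3M and 298 in SK-MEL-5 and was at least 89.9-fold lower in MALME-3M, and its partner ZNF790, a zinc finger gene, also had 0 counts in untreated MALME-3M cells. FEZF1-AS1, GDNF-AS1 and EPHA5-AS1 had 3 counts each in MALME-3M and 755, 523 and 237 in SK-MEL-5, ratios of 228, 158 and 71.5 in favour of SK-MEL-5 (intervals 77.7 to 1107, 53.7 to 768 and 24.2 to 349). GDNF, a neurotrophic factor gene, had 0 CPM in each untreated MALME-3M library and 8.84, 10.3 and 8.97 CPM in untreated SK-MEL-5 cells. EPHA5, an ephrin receptor gene, had 0, 0.121 and 0 CPM in MALME-3M and 38.0, 42.7 and 40.8 CPM in SK-MEL-5. TTN-AS1, LINC01531, LINC00221, LINC00632 and DLX6-AS1 were lower in MALME-3M, with changes of -5.59, -5.27, -4.68, -4.44 and -4.39 and adjusted p of at most 1.50e-07. LINC00221 had 3.49, 0.422 and 0.312 CPM in untreated MALME-3M cells and 36.4, 35.3 and 34.2 CPM in untreated SK-MEL-5 cells, so its difference was -6.58 without MALME-3M untreated library 1. TTN-AS1 had 0.12, 0.904 and 0.0521 CPM in MALME-3M and 17.5, 16.1 and 17.1 CPM in SK-MEL-5, and its difference was -7.55 without MALME-3M untreated library 2. The genes of the set named in this paragraph all had fewer than 150 counts in MALME-3M over treated and untreated libraries. They entered the set through SK-MEL-5, the line in which they were high.

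Between the lines, 94 antisense genes and 127 partners of the 163 pairs were called, and 76 pairs had both called, 57 in the same direction and 19 in opposite directions. With 71.7% of all genes tested called between the lines, many pairs would have both called without any link between gene and partner. Across the 163 pairs the line differences of gene and partner had an r of 0.55, beside 0.08 and 0.24 for the IFN-γ changes in SK-MEL-5 and MALME-3M. Overlapping reads cannot be told apart in these pairs, and the correlations are descriptions.

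**Figure D5:**
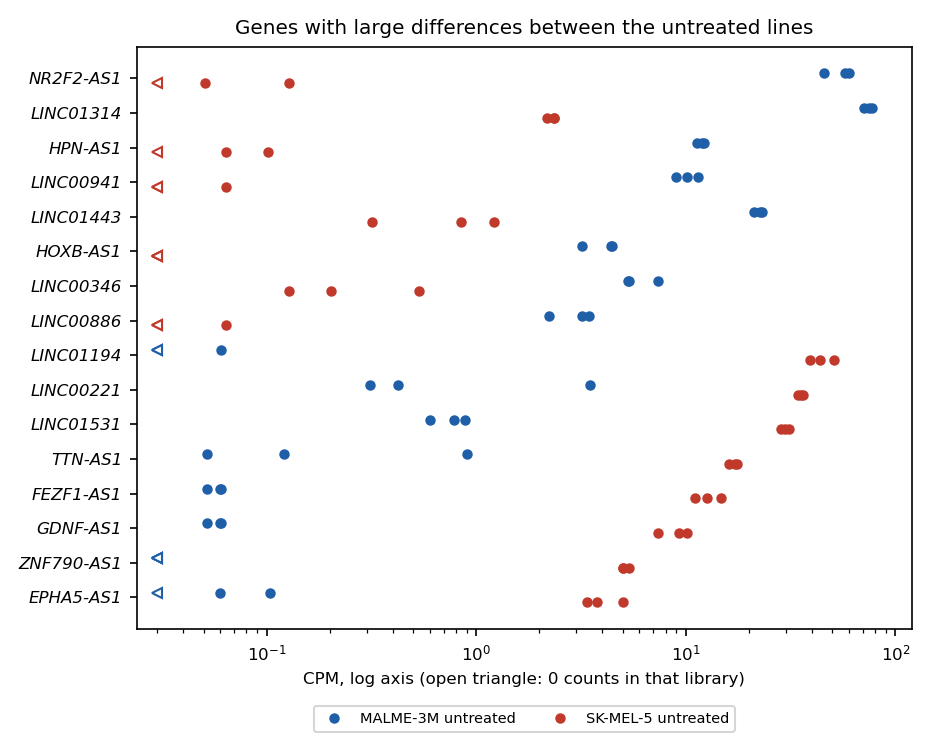
CPM in each untreated library (points, log axis) of 16 genes with large differences between MALME-3M and SK-MEL-5, with open triangles for libraries with 0 counts, which can lie on top of each other. The upper 8 genes were higher in MALME-3M and the lower 8 lower, with no overlap of the lines for any of them. All but LINC01314 entered the set through the line in which they were high.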

How the data were processed

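For each of 12 libraries the authors deposited raw HTSeq gene counts, whole numbers without normalization, per the file headers and the counter's closing lines. They also deposited kallisto tables with estimated counts and TPM for each transcript, per the file headers. Tools named in the submitters' processing notes were cutadapt, STAR, SAMtools, kallisto and HTSeq, with the build hg38. Kits were Pico V3 per the labels' protocols. Neither annotation nor strand setting is given in the sources used here. The gene tables hold 15830 assembled loci without a symbol. Assembled transcripts took 44.8% to 50.1% of the estimated counts, and the highest single transcript 46.6% to 57.7% of TPM, so TPM only describes.

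HTSeq's closing lines stayed outside the tests. Non-unique alignments came to 7.47 to 13.7 per gene count, reads outside features to 0.533 to 0.850 per gene count, and ambiguous reads to 4.19% to 4.54% of gene counts. R 4.3.3 and edgeR 4.0.16 tested the counts (filterByExpr with a minimum count of 10, TMM, glmQLFit, glmQLFTest, 1 mean per group over all 12 libraries), with p-values adjusted over 15810 genes, a procedure tested on simulated data. For an alternative, annotated transcripts' estimated counts were added up per gene and rounded. A fold against 0 counts uses a floor of 3 counts over the group (0.0498 to 0.0572 CPM) and is a lower bound. Intervals and floors cover counting error only, since reads need not be independent molecules. Replicates differed beyond sampling noise, and none were merged. Replicate numbers only name the libraries. Positions come from GENCODE 29 (253 genes by symbol, 32 by a newer symbol) and promoters from RefSeq (GRCh38.p14). Named genes were MALAT1, NEAT1, MIR155HG, the 8 highest per kb, up to 15 called per line by size, those called in both lines or for a difference between lines, 10 in each direction between the lines, sense partners and list genes. Members and lists were chosen with earlier results of these data known. Alternatives were DESeq2 1.42.0, other scalings, no filter, single contrasts, no assembled loci, transcript sums and omission of each library. A result for 1 list gene is not reported here.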

Additional observations from a re-analysis of the deposited data

Results flagged for a closer look

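The change with IFN-γ differed between the lines for LINC01419, by -0.47 on the log2 scale as MALME-3M minus SK-MEL-5, in the edgeR test of that difference. It was called in each of the 12 omissions of 1 library, with adjusted p of 0.000214 to 0.0275, and not in the sums of transcript estimates (-0.48, adjusted p = 0.0850). The same test flagged PITPNA-AS1, with a difference of -0.94, whose adjusted p ran from 0.0260 to 0.134 over the omissions. PITPNA-AS1 shares 379 of its 542 exon bases with PITPNA on the other strand, which did not pass the test in either line.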

How the results depend on the processing

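No paired analysis was possible because the labels give no replicate numbers. Other scalings moved the median of all genes by at most 0.03 on the log2 scale. Summed transcript estimates tested 219 of the 289 genes and called 4 higher and 1 lower in SK-MEL-5, 4 higher and 6 lower in MALME-3M, 1 with a larger change in MALME-3M and 0 in SK-MEL-5, and 53 higher and 42 lower between the untreated lines. Over all 12753 genes tested in these sums, 388 were called higher and 183 lower in SK-MEL-5, and 519 and 411 in MALME-3M. The difference of the changes was called positive for 68 and negative for 67 of them. Between the untreated lines 3597 were called higher and 3662 lower. These sums held less than the gene count for most genes and more for 7 of 282. Without a filter on low counts the difference of the changes was called positive for 7 and negative for 4 genes of the set. Over all 34075 genes with a count, 569 and 412 were called in that setting. DESeq2 called 1 and 4 genes of the set, beside 455 and 400 of all genes with a count. MALAT1 in SK-MEL-5 was at 0.13 without a filter and 0.16 with only the groups of the contrast, both called. MALAT1 in MALME-3M was at 0.19 in the transcript sums (adjusted p = 0.0517). NEAT1 in SK-MEL-5 was at 0.28 in DESeq2 and 0.28 in the transcript sums, and in MALME-3M at 0.38 in the sums (adjusted p = 0.0662), none of them called. In the transcript sums LINC01531 in MALME-3M reversed to 1.82, SAMMSON to -0.057 (its difference between the lines to -0.39) and SLC16A1-AS1 to -0.89, and in SK-MEL-5 LINC00862 to 0.043, LINC01021 to 0.15, RFX3 to -0.22 and ZBED3-AS1 to -0.039, none of them called. The cause was not tested.

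Leaving out 1 library, calls ranged from 13 to 21 higher and 4 to 14 lower in SK-MEL-5, and from 11 to 23 higher and 14 to 23 lower in MALME-3M. They ranged from 0 to 2 positive and 1 to 3 negative for the difference, and from 86 to 99 higher and 76 to 85 lower between the lines. Lower calls in SK-MEL-5 were 5, 7, 4 and 6 without SK-MEL-5 untreated library 2 or 3 or IFN-γ library 2 or 3, and 5 without MALME-3M IFN-γ library 1. Over all genes tested the lower calls in these omissions were 655, 889, 784, 665 and 789, against 1114 with all libraries. Calls in MALME-3M were 11 higher without untreated library 1, and 13 higher and 14 lower without IFN-γ library 3. Over all genes tested they were 1224 higher, and 1099 higher and 1208 lower, against 1504 higher and 1386 lower with all libraries. MALAT1 ranged from 0.11 to 0.16 in SK-MEL-5 and 0.20 to 0.34 in MALME-3M, and NEAT1 from 0.23 to 0.39 and 0.34 to 0.44. MIR155HG ranged from -3.16 to 1.04 in SK-MEL-5, with -0.03 and -0.46 without untreated library 2 or 3 and -3.16 without IFN-γ library 3, and from 0.85 to 1.34 in MALME-3M. At this depth 3 counts over a group limit what can be seen of genes below 0.0498 to 0.0572 CPM. Of the values for other named genes, 1040 kept their direction and call over the omissions of 1 library and 208 kept the direction and lost the call. Over the other settings 609 kept both, 82 lost the call and 8 reversed. The setting with only the groups of a contrast could not be run for the difference between the lines.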
